A study of Rattus norvegicus with 19 samples.

Results

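Adrb1, Adrb3, Adra1a, Adra1b, Adra1d, Adcy5 and Adcy6 encode catecholamine receptors of the beta and alpha1 classes and cyclases that make cyclic AMP (cAMP) behind the beta receptors in heart muscle. They were named by function: 5 adrenergic receptors and the 2 adenylyl cyclases best known from cardiomyocytes. All 7 had a row among the 17455 gene symbols of the count table. The expression filter kept 12388 genes for testing, and 6 of the 7 were among them, all but Adrb3.

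Noradrenaline and adrenaline reach the heart from sympathetic nerves and the blood. The beta1 receptor couples to Gs and raises cAMP, which speeds and strengthens contraction through protein kinase A (PKA), while the alpha1 receptors couple to Gq, phospholipase C and protein kinase C. In long-standing heart failure with reduced ejection fraction, lower beta1 receptor density is a classic finding, whereas failure with preserved ejection fraction (HFpEF) has been examined less often at this level.

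The libraries were total RNA from the left ventricle of Sprague-Dawley rats aged 24 weeks at the start. HFpEF was brought on by 5 weeks of L-NAME (0.5 g/L) with a high-fat diet giving 60% of energy as fat, and control 5w animals of the same week had neither. Further diseased rats then received 4 weeks of gavage with PBS (untreated), empagliflozin at 0.35 g/kg per day (EMPA), pirfenidone at 0.3 g/kg per day (PFD) or both (EMPA + PFD), beside control 9w animals of that week. The labels give an induction of 5 weeks, while the study's discussion speaks of 9 weeks of it, which would have L-NAME and the diet go on through treatment. There were 3 libraries in each group except EMPA and PFD, which had 2.

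Counts per library ran from 7430539 to 13017754, with a median of 9951011. Levels below are CPM, a library's counts set against its total after TMM scaling, a correction that lines up the libraries by the genes they share. The members' levels are compared between libraries and never between genes, because transcript lengths were not at hand. Fold changes are log2 values with a standard error (SE) from the edgeR quasi-likelihood test. A gene is called where its p-value, adjusted over the 12388 tested genes, lies under 0.05, and a p-value above that line does not show that groups are equal.

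Several libraries stood apart or went against their labels. The labels give every animal as male, yet no read of the Y-linked gene Eif2s3y was counted in 7 libraries: HFpEF replicates 1 and 3, untreated replicates 1, 2 and 3, and both PFD libraries. The other 12 held 613 to 1321 counts of it. The series' own design text speaks of both sexes. All 3 control 5w, all 3 control 9w, both EMPA and all 3 EMPA + PFD libraries had Eif2s3y reads, so a difference between untreated or PFD and any of these groups cannot be told apart from whatever lies behind that split. HFpEF alone held both kinds of library, with 855 counts in replicate 2. A histocompatibility gene, RT1-CE16, divided the libraries another way. The control 5w, HFpEF and EMPA libraries held at most 3 counts of it, and the rest 308 to 922. Control 9w against control 5w, EMPA + PFD against HFpEF or EMPA, and EMPA against untreated lie wholly across that division. Its part in them was not tested. The most alike pair of all libraries crossed groups: untreated replicate 1 and PFD replicate 2 differed by a chi-square of 6.70 per degree of freedom, against 15.8 for untreated replicates 1 and 3 and 21.9 for the PFD pair.

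Tissue make-up also varied by library. The summed atrial markers Myl4, Myl7, Sln and Nppa, with Nppa giving the most counts on average, reached 23214 CPM in control 9w replicate 3 and 14839 CPM in untreated replicate 2, against 86.1 to 381 CPM in EMPA + PFD. Fibroblast markers, with Col3a1 giving the most counts on average, summed to 40884 and 32940 CPM in control 5w replicates 2 and 3 but to 4460 CPM in replicate 1. Red cell markers summed to 174 to 286 CPM in untreated and to 1111 to 1728 CPM in control 9w, without overlap. Their sum was 137 to 454 CPM in EMPA + PFD and 1313 to 3637 CPM in HFpEF. Such sums differ by cell content or by RNA per cell. In bulk tissue fewer cells of a type and less RNA per cell cannot be told apart.

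**Figure D1:**
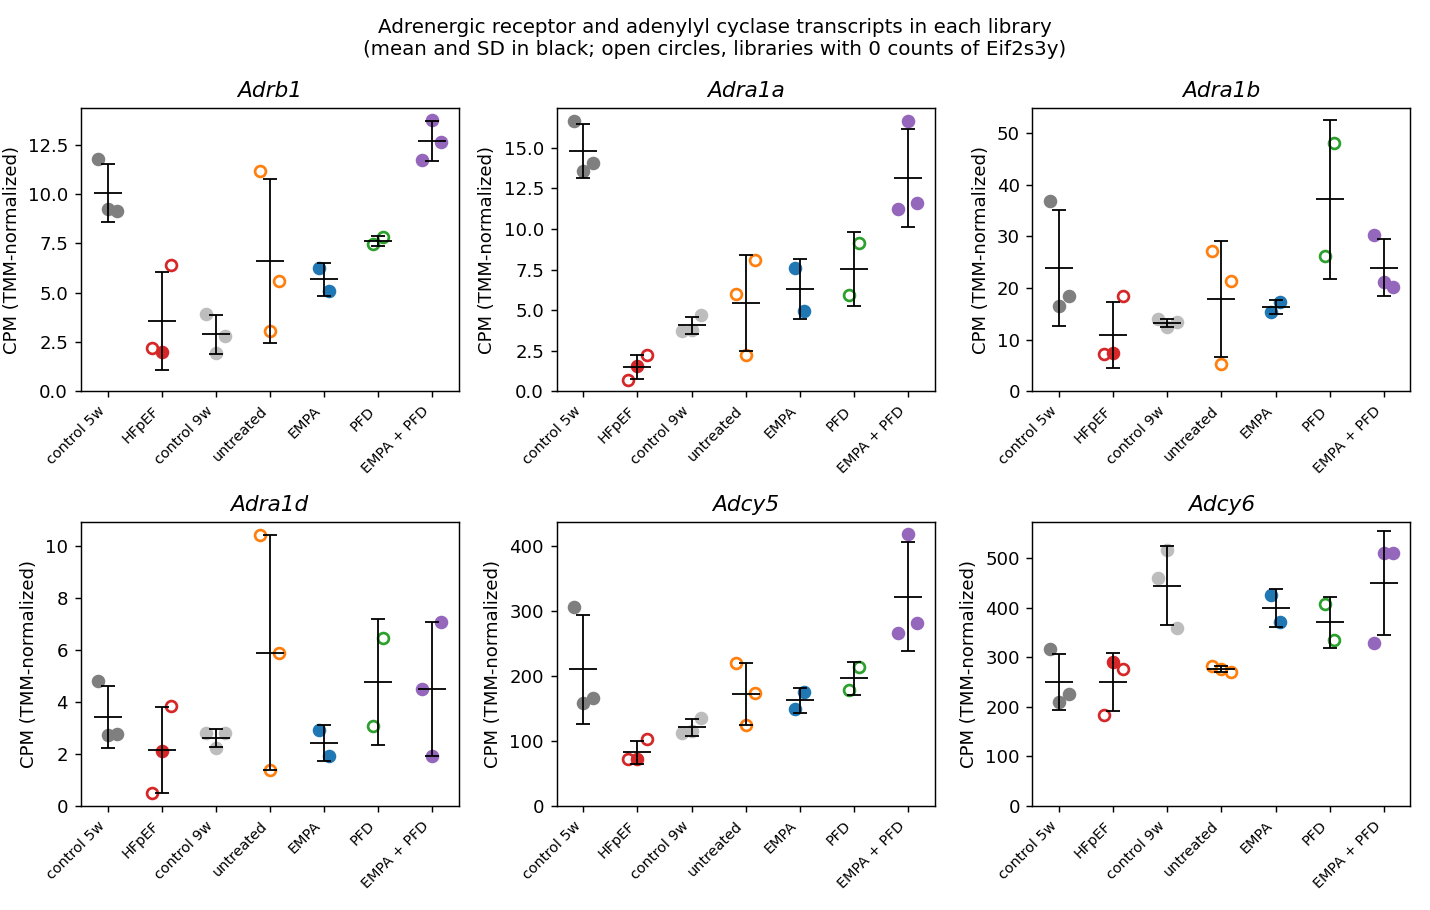
CPM of the 6 tested members in all 19 libraries, 1 panel per gene and 1 point per library, grouped by condition. Open circles mark libraries without Eif2s3y reads. Adrb1, Adra1a and Adcy5 stood low in HFpEF and control 9w and high in control 5w and EMPA + PFD.

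Of the 6 tested members, 3 were called lower in HFpEF than in control 5w (Adrb1, Adra1a and Adcy5), where 20.0% of all tested genes were called. This and the shares below count calls in either direction. The 20.0% stood for 2478 genes in the main fit, against 1490 without HFpEF replicate 2 and 1498 without control 5w replicate 1. At week 9, untreated against control 9w gave 0 called members by edgeR beside 1.78% of all genes, with 2 at an unadjusted p under 0.05 and 1 called by DESeq2. The difference between those disease effects, week 9 minus week 5, was called for 3 members beside 20.0% of genes. Its members were the same 3, all positive. The genes called for it numbered 2473 in the main fit, 1321 without untreated replicate 1 and 3690 without untreated replicate 2. Between the control groups, control 9w against control 5w, 4 members were called beside 34.5% of genes. Adrb1, Adra1a and Adcy5 were lower there and Adcy6 was higher. The week-9 minus week-5 difference contains this control difference by construction.

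The combined treatment gave 2 called members against untreated, Adra1a and Adcy5, both higher, beside 12.1% of genes. That share depended on single libraries, with 1501 genes called in the main fit but 110 without EMPA + PFD replicate 2 and 140 without untreated replicate 2. EMPA alone gave 0 by edgeR and 0 by DESeq2 beside 0.0404% of genes, with 1 member at an unadjusted p under 0.05. For PFD alone the count was 0 by edgeR, 0 by DESeq2 and 0 at an unadjusted p under 0.05, beside 0.00807% of genes. EMPA + PFD against EMPA gave 0 by edgeR beside 9.71% of genes (1203, but 7 without EMPA replicate 2), with 3 members at an unadjusted p under 0.05 and 1 called by DESeq2. Set against PFD, the combination gave 0 members and 0% of all genes by edgeR. There, 1 member and 1266 genes had an unadjusted p under 0.05, and DESeq2 called 0 members and 104 genes. Across the time points, EMPA + PFD against HFpEF gave 4 called members, all higher, beside 46.8% of genes called either way (2767 higher and 3029 lower). Against control 9w it gave 3, all higher, beside 33.8% of genes called either way (2122 higher and 2059 lower).

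These comparisons share libraries and are not independent. Control 5w serves both the week-5 disease effect and the control comparison, control 9w and untreated each serve several of the week-9 ones, and EMPA + PFD serves 5 of the 11. The EMPA and PFD groups have 2 libraries each, which leaves wide intervals.

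Adrb1 encodes the beta1 receptor. Its CPM was 11.8, 9.23 and 9.15 in control 5w and 2.22, 2.02 and 6.43 in HFpEF. At week 9 it was 3.95, 1.97 and 2.79 in control 9w and 11.2, 3.09 and 5.58 in untreated. Control 5w and HFpEF did not overlap, with HFpEF replicate 3 nearest to the controls, while untreated spread from the control 9w range up to the control 5w range. The treated groups read 6.26 and 5.10 with EMPA, 7.45 and 7.82 with PFD, and 11.7, 13.7 and 12.6 with EMPA + PFD. The combination therefore stood above every other week-9 library. The order of group means ran EMPA + PFD, control 5w, PFD, untreated, EMPA, HFpEF, control 9w, and only control 5w and PFD among neighbours did not overlap.

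Adrb1 was 2.83-fold lower in HFpEF than in control 5w (log2 -1.50, SE 0.446, adjusted p = 0.0298, 95% interval 1.46 to 5.47-fold lower). This call was weak: it was lost on leaving out any of the control 5w libraries or HFpEF replicate 1 or 2, where the adjusted p ran up to 0.103. The call was also lost with only the compared groups in the fit, where the log2 value was -1.50 (adjusted p = 0.101). Without HFpEF replicate 3 it was -2.23 (adjusted p = 0.00751). The controls themselves also differed, by 3.44-fold lower in control 9w (log2 -1.78, SE 0.459, adjusted p = 0.00888). HFpEF and control 9w libraries overlapped and were not tested against each other. Untreated against control 9w gave log2 1.17 (SE 0.461, adjusted p = 0.189). Leaving out 1 library moved it between 0.56 (without untreated replicate 1, adjusted p = 0.684) and 1.52 (without untreated replicate 2, adjusted p = 0.0470), and the Eif2s3y covariate brought it to 0.0897 (adjusted p = 0.981). The week-9 minus week-5 difference was 2.67 (SE 0.641, adjusted p = 0.0119). Against untreated, EMPA + PFD gave log2 0.95 (SE 0.436, adjusted p = 0.146). It was 0.60 without untreated replicate 2 (adjusted p = 0.456) and was called at 1.56 without untreated replicate 1 (adjusted p = 0.0306). The Eif2s3y covariate gave 2.03, without a call. The combination exceeded HFpEF by 3.58-fold (adjusted p = 0.00507) and control 9w by 4.35-fold (adjusted p = 0.00401).

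Adrb3, the beta3 receptor, was close to absent. It had 6 and 3 counts in the EMPA libraries, 2 and 0 with PFD, 0, 0 and 2 in control 5w, 1, 0 and 0 in HFpEF, and 0 in all 9 libraries of control 9w, untreated and EMPA + PFD. With a floor of 3 counts, equal to 0.215 to 0.400 CPM depending on the library, only the EMPA libraries reached the floor, and no fold change is given.

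Adra1a, the alpha1A receptor, showed the largest change. Its CPM was 16.7, 13.6 and 14.1 in control 5w against 0.718, 1.56 and 2.23 in HFpEF. Control 9w held 3.72, 3.81 and 4.69, and untreated 6.01, 2.27 and 8.11. The week-5 groups were far apart, and untreated replicate 2 lay below control 9w while replicates 1 and 3 lay above it. EMPA gave 7.59 and 4.98, PFD 5.92 and 9.16, and EMPA + PFD 11.2, 16.6 and 11.6, so only the combination entered the control 5w range. Group means descended from control 5w through EMPA + PFD, PFD, EMPA, untreated and control 9w to HFpEF. Gaps without overlap lay below EMPA + PFD and above HFpEF.

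The Adra1a level in HFpEF was 9.89-fold below control 5w (log2 -3.31, SE 0.437, adjusted p = 0.000593, 95% interval 5.18 to 18.9-fold lower). Control 9w was 3.61-fold below control 5w (log2 -1.85, SE 0.404, adjusted p = 0.00361). Untreated did not part from control 9w (log2 0.41, adjusted p = 0.634). For this receptor the week-9 disease effect (log2 0.41) minus the week-5 effect (log2 -3.31) was 3.72 (SE 0.593, adjusted p = 0.00196). EMPA + PFD was 2.42-fold above untreated (log2 1.27, SE 0.396, adjusted p = 0.0488, 95% interval 1.35 to 4.34). That call sat at the threshold: without untreated replicate 2 it was 0.89 (adjusted p = 0.172), without EMPA + PFD replicate 2 it was 1.09 (adjusted p = 0.177), without EMPA + PFD replicate 3 it was 1.38 (adjusted p = 0.0876), and without untreated replicate 1 it was 1.35 (adjusted p = 0.0584). With the presence of Eif2s3y reads as a covariate it was 1.17 with an adjusted p of 0.424. Since only HFpEF held both kinds of library, that covariate rests on HFpEF replicate 2 against replicates 1 and 3 and is carried from there to untreated. The call also ended with upper-quartile scaling (adjusted p = 0.0503), no filter (0.0567), only the compared groups (0.135) and the replicate block (0.0579). EMPA + PFD stood 8.80-fold above HFpEF (adjusted p = 0.000288) and 3.21-fold above control 9w (adjusted p = 0.00662).

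Adra1b and Adra1d encode the alpha1B and alpha1D receptors, and the main edgeR fit called neither in any comparison. Adra1b CPM was 36.8, 16.4 and 18.5 in control 5w, 7.18, 7.43 and 18.4 in HFpEF, and 14.0, 12.5 and 13.4 in control 9w. HFpEF replicate 3 reached the control 5w range while replicates 1 and 2 lay under it. Untreated held 27.1, 5.28 and 21.3, EMPA 15.4 and 17.4, PFD 26.3 and 48.0, and EMPA + PFD 30.3, 21.3 and 20.3. Its HFpEF value against control 5w was log2 -1.12 (SE 0.497, adjusted p = 0.119). With HFpEF replicate 2 as the only HFpEF library, after the libraries without Eif2s3y reads were dropped, it was -1.62. Without HFpEF replicate 3 it was -1.71 (adjusted p = 0.0436). Leaving out single libraries gave values from -1.71 to -0.67, with adjusted p-values up to 0.401. EMPA + PFD against HFpEF gave 1.12 for Adra1b by edgeR (adjusted p = 0.0758), while DESeq2 called it (1.15, adjusted p = 0.0447). Against control 9w it was called with only those groups in the fit (0.86, adjusted p = 0.00942) and not in the main fit (0.85, adjusted p = 0.204). Its week-9 minus week-5 difference of 1.54 (adjusted p = 0.131) was called without HFpEF replicate 3 (2.13, adjusted p = 0.0481) or untreated replicate 2 (1.98, adjusted p = 0.0164). Adra1d ranged from 0.502 to 10.4 CPM over all 19 libraries, and all neighbouring group means overlapped. Its largest value was the week-9 minus week-5 difference, 1.85 with an adjusted p of 0.192.

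Adcy5 encodes adenylyl cyclase 5. Its CPM was 307.1, 158.4 and 165.7 in control 5w and 73.1, 72.0 and 102.7 in HFpEF, with no overlap although control 5w replicate 1 stood high. Control 9w had 111.9, 116 and 135.9, and untreated 219.9, 124 and 173.3. Untreated replicate 2 thus lay inside the control 9w range. EMPA libraries showed 149.4 and 176, PFD libraries 178.7 and 214.3, and EMPA + PFD libraries 265.8, 419.8 and 282.2. All 3 combination libraries were above every other week-9 library. Group means ran from EMPA + PFD through control 5w, PFD, untreated, EMPA and control 9w to HFpEF, with gaps only on each side of control 9w.

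HFpEF was 2.55-fold below control 5w in Adcy5 (log2 -1.35, SE 0.273, adjusted p = 0.00592, 95% interval 1.70 to 3.81-fold lower). The call was kept on leaving out any library and lost with only the compared groups in the fit (adjusted p = 0.0598). Control 9w was 1.73-fold below control 5w (log2 -0.79, SE 0.270, adjusted p = 0.0341). Without control 5w replicate 1 this control difference was -0.41 with an adjusted p of 0.196. Leaving out control 9w replicate 1 or 2 gave adjusted p-values of 0.103 and 0.102. The call was also lost with only the compared groups in the fit and with the replicate block. The week-9 minus week-5 difference was 1.86 (SE 0.383, adjusted p = 0.00613). Against untreated, EMPA + PFD was 1.87-fold higher (log2 0.90, SE 0.270, adjusted p = 0.0438). The call was lost without untreated replicate 2 (0.71, adjusted p = 0.182), untreated replicate 3 (0.93, adjusted p = 0.0888), EMPA + PFD replicate 2 (0.68, adjusted p = 0.187) or EMPA + PFD replicate 3 (1.01, adjusted p = 0.0749). The Eif2s3y covariate gave 1.19 with an adjusted p of 0.177, and the call also ended with no filter (adjusted p = 0.0517), only the compared groups (0.119) and the replicate block (0.0637). EMPA + PFD exceeded EMPA by log2 0.99 without a call (adjusted p = 0.0558), HFpEF by 3.91-fold (adjusted p = 0.000297) and control 9w by 2.66-fold (adjusted p = 0.00223).

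Adcy6 encodes adenylyl cyclase 6 and took another course. Its CPM was 315.8, 209.7 and 224.9 in control 5w and 182.5, 289.8 and 276.7 in HFpEF, which overlapped. Control 9w read 459, 516.5 and 358.5, above all the untreated values of 282.8, 276.5 and 270.8. The treated libraries had 425.6 and 371.3 with EMPA, 406.4 and 334.4 with PFD, and 329.5, 510.4 and 509.9 with EMPA + PFD. All of these were above untreated. In HFpEF against control 5w the log2 difference was -0.00 (SE 0.219, adjusted p = 0.994, 95% interval -0.47 to 0.46). Control 9w was 1.78-fold above control 5w (log2 0.83, SE 0.220, adjusted p = 0.0104), a call lost without control 9w replicate 2 (adjusted p = 0.0511).

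Untreated gave log2 -0.68 against control 9w (SE 0.220, adjusted p = 0.112), which edgeR did not call and DESeq2 did (-0.69, adjusted p = 0.0403). The Eif2s3y covariate in the edgeR fit brought it to -0.35 (adjusted p = 0.798). EMPA + PFD gave 0.70 against untreated (SE 0.220, adjusted p = 0.0502), just above the threshold. With the same covariate that value was 0.37 (adjusted p = 0.618). Against HFpEF the combination was 1.80-fold higher in Adcy6 (log2 0.85, adjusted p = 0.00695). That log2 value was 0.63 with an adjusted p of 0.155 under the Eif2s3y covariate and 0.54 with an adjusted p of 0.230 when HFpEF replicate 2 stood alone. Its interval against control 9w ran from -0.45 to 0.48 on the log2 scale.

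Since 2 of the 3 HFpEF libraries lacked Eif2s3y reads, the week-5 comparison was also fitted with HFpEF replicate 2 alone, whose spread was then borrowed from the other groups. Adrb1 stood at log2 -2.25 (adjusted p = 0.0116), Adra1a at -3.17 (adjusted p = 0.00523) and Adcy5 at -1.48 (adjusted p = 0.0410). These values rest on that single HFpEF library. The part of the Eif2s3y split in the week-5 result was not tested. No such fit could be made for untreated or PFD, where no library had Eif2s3y reads. The Eif2s3y covariate fit, which carries the contrast among the 3 HFpEF libraries to week 9, cannot replace it. In it the week-9 minus week-5 differences were 2.40 for Adrb1 (adjusted p = 0.0267), 3.75 for Adra1a (adjusted p = 0.00457) and 1.77 for Adcy5 (adjusted p = 0.0162).

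The balance of the cyclases was followed as counts of Adcy5 per count of Adcy6 in the same library, which needs no scaling between libraries. Its mean was 0.821 (SD 0.131) in control 5w, 0.340 (SD 0.0806) in HFpEF, 0.282 (SD 0.0842) in control 9w and 0.622 (SD 0.165) in untreated. In the treated groups it was 0.413 (SD 0.0869) with EMPA, 0.540 (SD 0.142) with PFD and 0.728 (SD 0.151) with EMPA + PFD. The ratio was lowest in control 9w, where Adcy6 was high and Adcy5 was lower than in control 5w. HFpEF came next, where Adcy5 was low. The ratio was described and not tested.

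**Figure D2:**
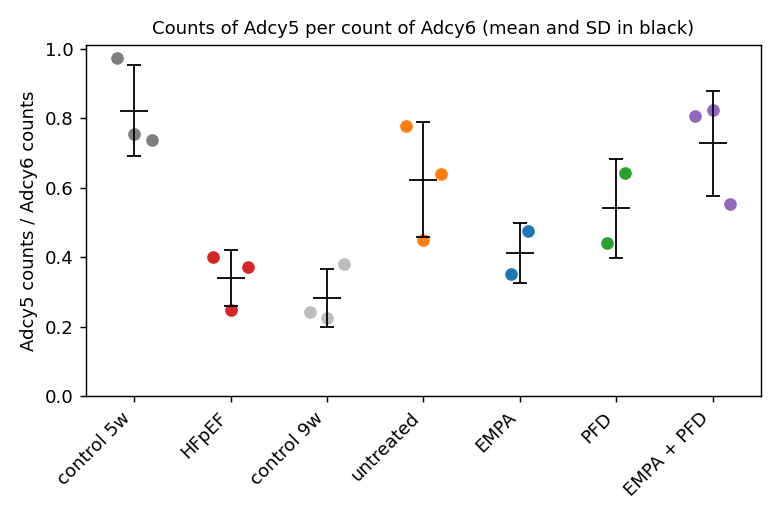
Counts of Adcy5 divided by counts of Adcy6, 1 point per library with group mean and SD in black. Control 5w, untreated and EMPA + PFD lay high, HFpEF and control 9w low.

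**Figure D3:**
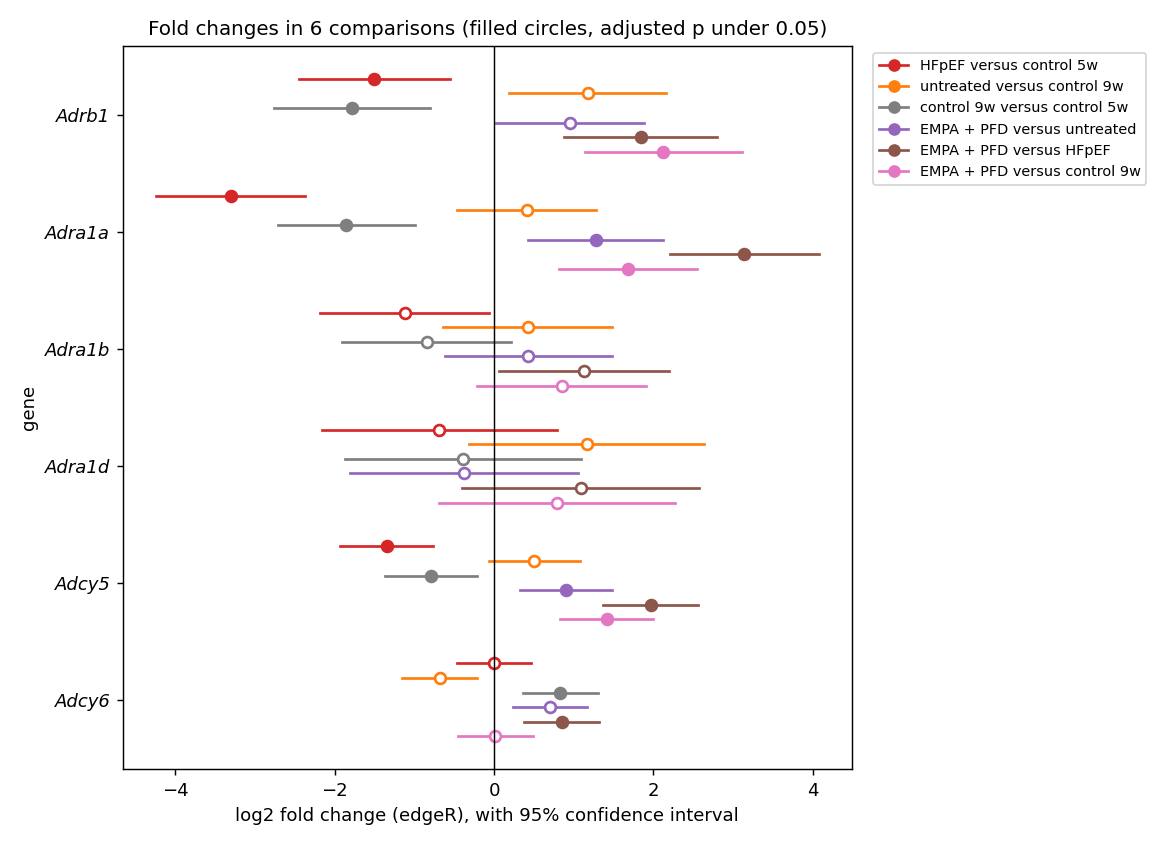
log2 fold change with 95% interval of the 6 tested members in 6 of the 11 comparisons, in 1 panel with genes as rows and comparisons as colors. Filled circles mark calls. Adrb1, Adra1a and Adcy5 lay below 0 in HFpEF against control 5w and above 0 in EMPA + PFD against HFpEF.

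Across all 19 libraries Adra1a and Adcy5 varied together (r = 0.870, rho = 0.839), as did Adrb1 with Adcy5 (r = 0.862, rho = 0.860) and Adrb1 with Adra1a (r = 0.827, rho = 0.844). Adcy6 followed Adrb1 little (r = 0.110, rho = 0.0772) and Adcy5 somewhat more (r = 0.392, rho = 0.286). Among 11738 candidate genes, those most alike in profile were Ero1a for Adrb1 (r = 0.948, rho = 0.963), Tmem196 for Adra1a (r = 0.959, rho = 0.940), Abcb8 for Adcy5 (r = 0.979, rho = 0.961) and Usp36 for Adcy6 (r = 0.947, rho = 0.946). For Adra1b it was Aimp2 (r = 0.937, rho = 0.919), and for Adra1d Fbxo44 (r = 0.832, rho = 0.805). The 19 libraries come from 7 groups, so such values carry the group differences too.

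The members also varied with a sum of cardiomyocyte marker RNA. This sum of 8 markers, with Myh6 giving the most counts on average though not in every library, was 57867, 21805 and 25129 CPM in control 5w and 8199.8, 18302 and 25050 CPM in HFpEF. It was 28687, 34379 and 29775 CPM in control 9w and 51750, 15564 and 41961 CPM in untreated. The low library at week 9, untreated replicate 2, was also the lowest week-9 library in Adra1a and the lowest untreated library in Adrb1 and Adcy5. Control 9w replicates 2 and 3 were lower still in Adrb1 (1.97 and 2.79 against 3.09 CPM). Control 9w replicates 1 and 2 were lower in Adcy5 (111.9 and 116 against 124 CPM). The marker sums of all these control libraries were higher. With EMPA the sum was 33966 and 24754 CPM, with PFD 45793 and 55163 CPM, and with EMPA + PFD 46105, 74190 and 61841 CPM. Against this sum, r over the 19 libraries was 0.854 for Adcy5, 0.810 for Adra1b, 0.772 for Adra1a, 0.758 for Adra1d, 0.710 for Adrb1 and 0.624 for Adcy6. Adcy6 followed other sums more closely, with r of -0.823 for leukocyte and -0.786 for fibroblast markers, and Adcy5 had -0.726 with skeletal muscle and Adra1a -0.713 with Schwann cell and nerve markers. From control 5w to control 9w, where Adcy6 was called higher, mean fibroblast marker RNA went from 26095 to 3930 CPM and leukocyte marker RNA from 268 to 123 CPM. Of the 8 markers, 1 was called lower in HFpEF than in control 5w, with a median log2 value of -1.19, where 20.0% of all genes were called, and 6 were called higher in EMPA + PFD than in HFpEF, with a median of 1.73, where 46.8% were. The members' medians in those comparisons were -1.24 and 1.48, beside 0.02 and -0.09 for all tested genes. The markers' part in the members' result was not tested.

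Among the 7 further adenylyl cyclases that were tested, Adcy4 had the lowest adjusted p in HFpEF and moved opposite to Adcy5. It rose in HFpEF (log2 0.85, SE 0.176, adjusted p = 0.00676) and in control 9w against control 5w (log2 1.48, SE 0.179, adjusted p = 0.000133). It fell with EMPA + PFD against untreated (log2 -0.71, SE 0.177, adjusted p = 0.0244). The endothelial markers took the same directions in the week-5 and control comparisons, where 4 and 5 of 6 were called higher beside 20.0% and 34.5% of all genes. HFpEF replicate 1, at 1430 CPM of summed endothelial markers, lay within the control 5w range of 1203 to 1461 CPM. Their sum was 2471 to 2914 CPM in untreated and 1530 to 1740 CPM in EMPA + PFD, with 1 of 6 called lower beside 12.1% of all genes, and their part in the result was not tested. Adcy1 was lower in HFpEF (log2 -2.24, SE 0.581, adjusted p = 0.0169), and Adcy9 was lower in control 9w than in control 5w (log2 -0.74, SE 0.155, adjusted p = 0.00290).

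Downstream of the cyclases lie 18 cAMP effectors and their anchors. No test was run on this or any other list as a whole. In HFpEF against control 5w, 10 were called lower and 2 higher, with a median log2 value of -0.76 against 0.02 for all tested genes, of which 20.0% were called. Control 9w against control 5w gave 8 lower and 2 higher, with a median of -0.63 against -0.04, beside 34.5% of all genes. EMPA + PFD against untreated gave 8 higher and 0 lower, with a median of 0.79 against -0.03, beside 12.1% of all genes. Prkar2a, the RII-alpha regulatory subunit of PKA, had log2 -1.42 in HFpEF (SE 0.219, adjusted p = 0.00127) and 1.23 with EMPA + PFD against untreated (SE 0.218, adjusted p = 0.00832). The PKA inhibitor Pkia changed by -2.61 (SE 0.433, adjusted p = 0.00195) and 1.68 (SE 0.419, adjusted p = 0.0249) in the same comparisons. Rapgef3, which encodes the cAMP sensor Epac1, went the other way in HFpEF (log2 1.09, SE 0.267, adjusted p = 0.0139).

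PKA targets of contraction, 11 genes, held 5 lower and 0 higher in HFpEF against control 5w, with a median log2 value of -1.15 against 0.02, where 20.0% of all genes were called. Control 9w against control 5w had 1 lower, with a median of -0.22 against -0.04, beside 34.5% of all genes. Rrad was that gene (log2 -1.38, SE 0.397, adjusted p = 0.0157), and in HFpEF it was at -1.91 (SE 0.404, adjusted p = 0.00722). EMPA + PFD against untreated raised 3 and lowered 0, with a median of 0.73 against -0.03, beside 12.1% of all genes. Among them Cacna1c was at 0.99 (SE 0.279, adjusted p = 0.0366) and Ryr2 at 1.10 (SE 0.331, adjusted p = 0.0447). Some genes of this list, such as Ryr2, are also counted among the cardiomyocyte markers.

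Of 12 cAMP phosphodiesterases, 2 were called higher and 2 lower in HFpEF against control 5w, beside 20.0% of all genes. Pde3a, which breaks down cAMP in cardiomyocytes, was at log2 -1.44 (SE 0.255, adjusted p = 0.00270), while Pde1c was at 1.69 (SE 0.416, adjusted p = 0.0142). EMPA + PFD against untreated had 2 higher and 1 lower, beside 12.1% of all genes. There Pde3a was higher by 1.41 (SE 0.252, adjusted p = 0.00854) and Pde4d by 1.64 (SE 0.290, adjusted p = 0.00834). The list as a whole had no common direction.

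Of 12 G proteins, receptor kinases and arrestins, 3 were called higher and 0 lower in HFpEF, with a median of 0.20 against 0.02, where 20.0% of all genes were called. EMPA + PFD against untreated gave 0 higher and 4 lower, with a median of -0.38 against -0.03, beside 12.1% of all genes. Grk6, a receptor kinase, was at 0.45 in HFpEF (SE 0.131, adjusted p = 0.0284) and at -0.65 with EMPA + PFD (SE 0.132, adjusted p = 0.0127). On the alpha1 side, with 20 genes of Gq, phospholipase C and protein kinase C, 1 was higher and 2 were lower in HFpEF, 3 higher and 4 lower in control 9w against control 5w, and 1 higher and 1 lower with EMPA + PFD against untreated. Each count is near or below the share of all genes called there (20.0%, 34.5% and 12.1%). Prkce, a protein kinase C isoform, was at -1.48 in HFpEF against control 5w (SE 0.244, adjusted p = 0.00185). It was at -1.56 in control 9w against control 5w (SE 0.247, adjusted p = 0.000577) and at 1.52 with EMPA + PFD against untreated (SE 0.242, adjusted p = 0.00677). These are the same directions as Adra1a.

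A list of cAMP-responsive transcription, made of genes that cAMP is known to induce together with the factor Creb1 and its coactivator Crtc2, was mostly higher in HFpEF and control 9w, each against control 5w. Of 12, 7 were called higher and 1 lower in HFpEF against control 5w, with a median of 1.40 against 0.02 and 20.0% of all genes called, and 7 higher and 1 lower in control 9w against control 5w, with a median of 0.93 against -0.04 and 34.5% of all genes called. Dusp1 was at 2.18 in HFpEF (SE 0.205, adjusted p = 0.000148) and at 2.57 in control 9w (SE 0.208, adjusted p = 7.78e-06). Sik1 was at 2.55 (SE 0.361, adjusted p = 0.000844) and 2.47 (SE 0.361, adjusted p = 0.000355). Many other stimuli, handling of tissue included, induce these genes. EMPA + PFD against untreated had 2 higher and 2 lower beside 12.1% of all genes, and against HFpEF 4 higher and 1 lower beside 46.8%, so the latter count is no larger than the share of all genes.

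Of 7 tested genes for catecholamine synthesis and uptake, 1 was called in HFpEF against control 5w, beside 20.0% of all genes. This was Ddc, which was lower (log2 -1.96, SE 0.446, adjusted p = 0.00986). Ddc was not called with EMPA + PFD against untreated (log2 0.16, adjusted p = 0.811). EMPA alone, PFD alone and the combination against PFD gave 0 called genes in every pathway list.

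Adrb1 and Adcy5 were called in the same direction in 5 comparisons, so their promoter windows, 250 bases before to 50 after the start, are printed below. RefSeq windows existed for 4 of the 7 members (Adrb1, Adra1b, Adra1d and Adcy5). Capitals mark matches to the motifs searched on both strands. Adrb1 lies at chr1:265776853-265777152 on the plus strand and Adcy5 at chr11:79123294-79123593 on the minus strand of GRCr8.
Adrb1: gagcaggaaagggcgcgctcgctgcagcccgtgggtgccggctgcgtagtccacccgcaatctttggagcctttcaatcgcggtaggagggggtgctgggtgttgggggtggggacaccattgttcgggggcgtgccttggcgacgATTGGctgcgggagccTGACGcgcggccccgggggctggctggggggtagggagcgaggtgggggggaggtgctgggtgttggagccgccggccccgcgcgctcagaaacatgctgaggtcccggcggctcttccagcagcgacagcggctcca
Adcy5: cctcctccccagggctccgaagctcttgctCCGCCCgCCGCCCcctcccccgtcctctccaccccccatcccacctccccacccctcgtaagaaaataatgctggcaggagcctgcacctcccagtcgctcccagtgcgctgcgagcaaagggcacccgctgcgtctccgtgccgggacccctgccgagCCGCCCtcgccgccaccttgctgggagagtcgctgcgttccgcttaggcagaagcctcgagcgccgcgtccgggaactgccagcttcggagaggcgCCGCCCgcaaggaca

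The Adrb1 window held the core of the cAMP response element, CRE (letters TGACG, present in 21.2% of all 33469 windows) at bases 163 to 167 and the CCAAT box (37.5% of windows) on the opposite strand at bases 147 to 151. The Adcy5 window held the GC box (letters GGGCGG, 33.1% of windows) on the opposite strand 4 times, at bases 31 to 36, 38 to 43, 190 to 195 and 286 to 291. Neither held the full CRE (letters TGACGTCA, 1.83% of windows), which contains that core. The E-box (letters CACGTG, 6.42% of windows) was absent from both, as were the TATA box (letters TATAAA, 14.2% of windows), the GATA motif (letters AGATAA, 11.6% of windows) and the nuclear receptor motif (letters AGGTCA, 16.2% of windows). Both windows had a GC content of 70.7%, against a median of 51.7%. No motif was shared by the windows, and a match describes letters only.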

How the data were processed

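Left-ventricle total RNA of 19 rats in 7 groups was sequenced, with 3 libraries per group except EMPA and PFD, which have 2 because the authors excluded 1 of each. The authors deposited gene-level read counts. By the submitters' processing notes they were made with Trim Galore, FastQC, HISAT2 on rn6 and HTSeq. DESeq2 was named for the authors' own tests, and those notes gave no versions. The paper gives a version of iDEP, the web application it used to run DESeq2. Here CPM and all tests were computed from these counts with R 4.3.3 and edgeR 4.0.16 (TMM, filterByExpr, glmQLFit and glmQLFTest on a model of 7 group means over all 19 libraries, prior degrees of freedom 2.92, common coefficient of variation 0.257). The p-values were adjusted by the Benjamini-Hochberg method over the 12388 genes that passed of 17455, and a gene was called under 0.05. Confidence intervals of 95% come from the same fits. Fold changes were not given for genes at or below a floor of 3 counts per library. The floor covers counting error only.

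Depth was 7430539 to 13017754 counts per library, median 9951011. At such depth a gene near 1 CPM has about 10 counts. Replicate numbers were the only tie between groups and were treated as unpaired in the main fit. Alternatives were upper-quartile and RLE scaling, other count filters, a 2-fold rule, DESeq2 1.42.0, fits on only the compared groups, a replicate block, the presence of Eif2s3y reads as a covariate, fits without the libraries with 0 counts of Eif2s3y, and leaving out each library. The scripts were checked on simulated data.

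The members were named by function as receptors and cyclases, and the members and gene lists were chosen with earlier results of these data known. Promoter windows and overlapping genes come from RefSeq on GRCr8, while the counts were made on rn6. In that table Adcy6 overlaps Tuba1c and the pseudogene Cst3-ps1, Adcy5 overlaps 2 long non-coding RNA genes and Adra1b overlaps 1. The strand setting of the counting was not given. Items kept back for evaluations have been left out.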

Additional observations from a re-analysis of the deposited data

Results flagged for a closer look

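The disease effect on 3 members differed between time points when tested as the week-9 effect (untreated minus control 9w) less the week-5 effect (HFpEF minus control 5w). By the edgeR test the difference was 2.67 on the log2 scale for Adrb1 (adjusted p = 0.0119), 3.72 for Adra1a (adjusted p = 0.00196) and 1.86 for Adcy5 (adjusted p = 0.00613). All 3 were called lower in HFpEF at week 5, and none was called in untreated at week 9. The week-5 call of Adrb1 was lost on leaving out HFpEF replicate 1 or 2 or any control 5w library. All 3 were also called lower in control 9w than in control 5w, a difference that this contrast contains. Every untreated library lacked Eif2s3y reads and every control 9w library had them, and the part of that split was not tested.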

How the results depend on the processing

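Over 66 results and their alternatives, 1021 values in all, 922 kept their reading, 36 were weaker, 23 stronger and 40 changed sign, all 40 of values that were not called. Adrb1, Adra1a and Adcy5 kept their calls in every alternative for EMPA + PFD against HFpEF, EMPA + PFD against control 9w and the week-9 minus week-5 difference. The count of called members moved as follows, with all genes called in brackets. HFpEF against control 5w had 3 in the main fit (2478 genes), 1 with only the compared groups in the fit (714), 4 without the libraries with 0 counts of Eif2s3y (1545) and 2 to 4 on leaving out single libraries. Untreated against control 9w had 0 in the main fit (220), 1 by DESeq2 (829), 0 with the Eif2s3y covariate (2) and 0 to 1 on leaving out single libraries (8 without control 9w replicate 2, 1015 without untreated replicate 2). Control 9w against control 5w had 4 in the main fit (4276), 2 with a 2-fold rule (1817), 3 with only the compared groups (3838), 5 without the libraries with 0 counts of Eif2s3y (4511) and 2 to 4 on leaving out single libraries. EMPA + PFD against untreated had 2 in the main fit (1501), 3 with RLE (1480), 3 with at least 10 counts in every library (1648) and 3 by DESeq2 (2551), where Adcy6 joined, but 1 with the upper quartile (1637), 0 with no filter (1195), 1 with a 2-fold rule (473), 0 with only the compared groups (5), 0 with the Eif2s3y covariate (494) and 0 to 3 on leaving out single libraries (110 without EMPA + PFD replicate 2, 2263 without untreated replicate 1). EMPA + PFD against EMPA had 0 in the main fit (1203), 1 with at least 10 counts in every library (1293), 1 by DESeq2 (2151), 2 with only the compared groups (1280), 2 without the libraries with 0 counts of Eif2s3y (1672) and 0 to 1 on leaving out single libraries (7 without EMPA replicate 2, 1526 without EMPA + PFD replicate 1). EMPA + PFD against HFpEF had 4 in the main fit (5796), 5 by DESeq2 (6220), 3 with a 2-fold rule (2813), 3 with the Eif2s3y covariate (2988) and 4 to 5 on leaving out single libraries, and against control 9w it had 3 in the main fit (4181) and 4 with only the compared groups (4514). The week-9 minus week-5 difference had 3 to 4 on leaving out single libraries.

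With the replicate block, called members numbered 3 for HFpEF against control 5w (2107 genes), 0 for untreated against control 9w (99), 3 between the controls (3870), 0 for EMPA + PFD against untreated (1095), 4 for EMPA + PFD against HFpEF (5425), 3 against control 9w (3835) and 3 for the week-9 minus week-5 difference (2059). The block changed the sign of Adra1b with EMPA (0.0775) and Adra1d with PFD (0.0894), each against untreated. Paired by replicate number, deviations from group means had r of -0.532 to 0.291.

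Some log2 values changed sign. Adcy6 in HFpEF against control 5w was 0.0359 by the upper quartile, 0.00858 with no filter, 0.0158 with at least 10 counts, 0.00536 with only the compared groups, 0.21 with the Eif2s3y covariate, 0.28 without the libraries with 0 counts of Eif2s3y, and -0.12 to 0.21 on leaving out single libraries. Adcy6 in EMPA + PFD against control 9w was -0.0489 by the upper quartile, -0.0147 with no filter, -0.00120 with at least 10 counts, -0.0249 without the libraries with 0 counts of Eif2s3y, and -0.12 to 0.21 on leaving out single libraries. The Eif2s3y covariate also gave -0.36 for Adra1b in untreated against control 9w, 0.87 for Adrb1, 0.66 for Adra1b and 0.20 for Adcy5 in EMPA against untreated, and 0.14 for Adra1b and -0.0553 for Adcy6 in EMPA + PFD against PFD.

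Leaving out single libraries gave these further ranges. In untreated against control 9w Adra1b ran from -0.0151 to 0.86. In EMPA + PFD against untreated Adra1b ran from -0.0163 to 0.86 and Adra1d from -0.85 to 0.33. In EMPA against untreated Adrb1 ran from -0.56 to 0.40, Adra1a from -0.17 to 0.61, Adra1b from -0.56 to 0.32 and Adcy5 from -0.27 to 0.13. In PFD against untreated Adrb1 ran from -0.14 to 0.82, Adra1d from -0.93 to 0.41 and Adcy5 from -0.00107 to 0.40. In EMPA + PFD against PFD Adra1d ran from -0.55 to 0.58.

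The upper quartile moved the median log2 value of all genes by -0.11 in EMPA + PFD against HFpEF. It took the share of called genes that were higher from 54.4% to 38.4% in EMPA + PFD against untreated, where RLE gave 60.1%, and from 47.7% to 38.5% in EMPA + PFD against HFpEF. DESeq2 called more genes than edgeR in untreated against control 9w (829 against 220), EMPA + PFD against untreated (2551 against 1501), EMPA + PFD against EMPA (2151 against 1203), EMPA + PFD against PFD (104 against 0), EMPA against untreated (97 against 5) and PFD against untreated (5 against 1).

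The Eif2s3y covariate rests on HFpEF replicate 2 against replicates 1 and 3 alone. Fits without an EMPA or PFD replicate, and those with HFpEF replicate 2 alone, assume that a lone library varies like the other groups. Fits without the libraries with 0 counts of Eif2s3y were not possible where untreated or PFD enters. Control groups at week 5 and week 9 differed in many genes, and the cause was not tested. RNA levels say nothing of receptor protein or its activity. Cell content and RNA per cell were not separated.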

Other observations

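Adra2a, an inhibitory receptor mostly known from nerve endings and vessels, had 3 to 31 counts per HFpEF library and 3 to 12 per EMPA library. No library of the other 5 groups held more than 4. At such counts no fold change is given.

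In untreated against control 9w, Gnai3 was lower (log2 -1.11, adjusted p = 0.0206) and the cAMP-responsive Nr4a2 (log2 2.50, adjusted p = 0.00435) and Nr4a1 (log2 1.93, adjusted p = 0.0118) were higher by edgeR, the only 2 called of the 12 on that list, beside 1.78% of all genes. Adcy4 was also lower there (log2 -0.74, adjusted p = 0.0476) and Adcy9 higher (log2 0.65, adjusted p = 0.0485). The main fit called 220 genes in this comparison, against 8 without control 9w replicate 2 and 2 with the Eif2s3y covariate, so most of its calls depend on the fit.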
